A study of Mus musculus with 24 samples.

Results

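The 36 genes described here carry glucose into the cardiomyocyte (CM), break it down to pyruvate, store and release it as glycogen, and pass pyruvate on to lactate or to the mitochondria. They were taken by name out of the 56923 gene identifiers of the count table, at a time when earlier results of these data were known. They comprise 2 glucose transporters, 8 genes from hexokinase to phosphofructokinase, 9 genes of lower glycolysis and 2 lactate dehydrogenase genes. The others are 7 genes of the pyruvate dehydrogenase complex and its regulators, and 8 glycogen genes. They were measured in nuclei of mouse ventricular CMs at postnatal day 1 (P1), P7 and P14, by 3′ mRNA sequencing of nuclei sorted with an antibody to PCM1, a protein found around CM nuclei. All mice were C57BL/6N of either sex and homozygous for a floxed Casp2 allele, which encodes caspase-2. Control mice, XMLC2(-)Casp2(fl/fl), lacked Cre, and Casp2-depleted mice, XMLC2(+)Casp2(fl/fl), carried Cre under the XMLC2 promoter, which is active in CMs. Each library came from a pool of 15 hearts at P1, 6 at P7 or 2 at P14, and no group carried Cre without the floxed allele. Of the 24 libraries, 3 were left out here, namely replicate 1 of the P1 controls and, at P14, replicate 3 of the controls and replicate 1 of the Casp2-depleted group, which left 3 control and 4 Casp2-depleted libraries at P1, 4 and 4 at P7, and 3 and 3 at P14. The study had excluded the same libraries.

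Glucose enters the heart muscle cell through the carriers GLUT1, the form of the fetal heart, and GLUT4, the insulin-regulated form of the adult heart. Hexokinase traps it as glucose 6-phosphate, phosphofructokinase commits it to glycolysis, and enolase and pyruvate kinase end the pathway at pyruvate, while glycogen synthase and glycogen phosphorylase build up and break down the stored form. Many steps have a broadly expressed isozyme and a muscle isozyme, and the mouse heart is known to move from glycolysis to fatty acid oxidation as its fuel after birth.

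Libraries held 891817 to 2924097 reads on genes, so that 3 reads, the floor used here, were worth 1.03 to 3.36 CPM (counts scaled to library size) in a library. The share of all reads that fell on no gene had a median of 61.2% at P1, 50.7% at P7 and 73.9% at P14, and 7628 to 13651 genes had a read at P14 against 14006 to 17770 at P7. All 12 CM markers but at most 1 had reads in every library, and their summed level had a median of 42117 CPM at P1, 69172 CPM at P7 and 24935 CPM at P14, against 53.2 to 1115 CPM for the endothelial and 75.4 to 379 CPM for the fibroblast marker list over all libraries. Casp2 had no read in any P1 or P14 library, and 9 reads over the P7 control and 8 reads over the P7 Casp2-depleted libraries, with 0 to 5 in each, which is too few to check the genotype labels. Counts covered whole genes, so whether these reads lie in the deleted part is not known. In sorted pools of nuclei, fewer cells of a type and less RNA per nucleus cannot be told apart.

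The 36 genes took 1152 to 2480 CPM of a library in all, and 61820 reads over the 21 libraries. Glycogen genes held 51.86% of these reads, the genes from hexokinase to phosphofructokinase 19.11%, lower glycolysis 14.64%, the pyruvate dehydrogenase group 10.94%, lactate dehydrogenase 2.771% and the glucose transporters 0.6923%. Pygb, which encodes the brain form of glycogen phosphorylase, alone took 12107 reads or 19.58%. Per kilobase of gene span, and averaged over the 6 group means, the highest levels were those of Pgam2, the muscle phosphoglycerate mutase, with 14.62 CPM per kb, and Eno3, the muscle enolase, with 11.31 CPM per kb. Pygb followed with 7.988, Pygm, the muscle glycogen phosphorylase, with 5.477, and Gys1, the muscle glycogen synthase, with 5.102 CPM per kb. This order held for Pgam2 and Eno3 at P1 and P7 but not at P14, where Pgam2 stood at 1.046 and Eno3 at 0.1309 CPM per kb, each with reads in 1 of 6 libraries, and Pygb led with 5.953 CPM per kb. Long genes ranked lower on this scale than by reads, such as Gbe1, the glycogen branching enzyme, with 3277 reads but 0.3801 CPM per kb. Of the glucose transporters, Slc2a4 (GLUT4) lay in the middle of this order with 418 reads and 1.39 CPM per kb, and Slc2a1 (GLUT1) near its end with 10 reads and 0.01009 CPM per kb. Pgam1, the broadly expressed phosphoglycerate mutase, had no read in any of the 24 libraries and could not be tested, so 35 of the 36 genes passed the filter on low counts.

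**Figure D1:**
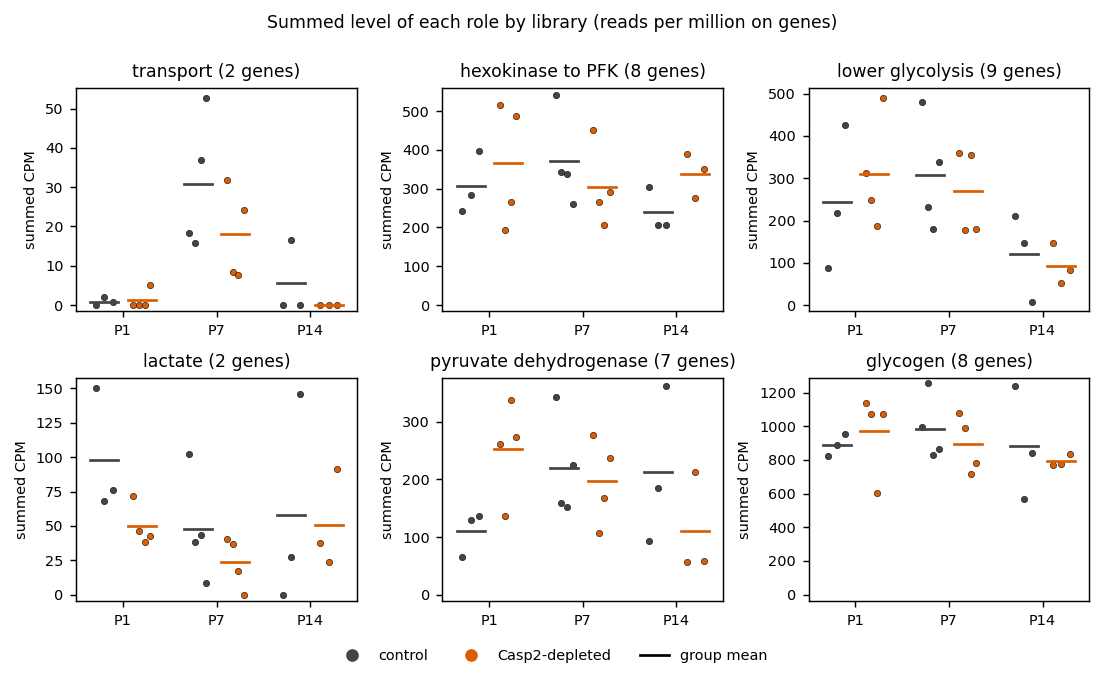
Summed level of the genes of each of the 6 roles in every library, in CPM of the reads on genes, by day and genotype, with each point 1 library and each line the group mean. Glycogen genes lay highest at every day, and the glucose transporters reached at most 16.6 CPM in a P14 library against up to 52.6 CPM at P7.

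Fewer of the genes were seen at P14, where every library also held fewer reads on genes than any P7 library. Between 29 and 34 of the 36 had a read in a P7 library, 19 to 34 in a P1 library and 14 to 25 in a P14 library. At P7, 25 genes had a read in all 8 libraries, at P1 14 genes in all 7, and at P14 8 genes in all 6. Besides Pgam1, the genes with no read in any P14 library were Pgk1 (phosphoglycerate kinase), Pdp1 (a pyruvate dehydrogenase phosphatase) and Slc2a1.

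From P1 to P7 no member passed the test in either genotype or over both. Slc2a4 came nearest to a rise, with a log2 fold change of 4.58 ± 1.82 (SE) over both genotypes (unadjusted p = 0.012 in edgeR's quasi-likelihood test). A gene was called in every comparison when its Benjamini-Hochberg adjusted p over all 20368 genes tested was below 0.05 and its level changed more than 2-fold; edgeR called 0 of the 35 members in the controls, in the Casp2-depleted libraries and over both, where 0.00982%, 0.0196% and 0.0933% of all genes were called. At an unadjusted p below 0.05 the counts were 2, 0 and 3 members, all higher at P7, beside 6.67%, 7.4% and 9.53% of all genes. These were Slc2a4 and Pygm in the controls, and Slc2a4, Pdp1 and Pygm over both genotypes. DESeq2 called none, whereas limma-voom called Slc2a4 over both genotypes with either normalization and in the controls after quantile normalization.

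At P1, Slc2a4 stood at 0, 1.40 and 0.792 CPM in the 3 control and 0, 0, 0 and 6.98 CPM in the 4 Casp2-depleted libraries. Where values of both genotypes follow each other here, those of the controls come first. At P7, Slc2a4 stood at 21.9, 21.6, 46.3 and 64.4 CPM and 43.4, 11.9, 8.23 and 24.5 CPM, and at P14 at 0, 12.7 and 0 CPM and 0 CPM each. Within each genotype the P7 and P1 libraries did not overlap, and only 1 of the 6 P14 libraries had a read. With the genotypes pooled, all P7 libraries lay above all P1 libraries for Slc2a4 alone among the members (2.86% against 0.108% of all genes). Slc2a4 lies on chromosome 11 (GRCm39, 69831006 to 69839070, minus strand), and 1427 bases of it overlap Ybx2 on the other strand. Slc2a1 had no read in any library but P1 control replicate 3 (0.702 CPM), P7 control replicate 2 (5.75 CPM) and P7 Casp2-depleted replicate 3 (0.686 CPM), so in most libraries it lay under the floor.

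In the controls, 28 of 35 members (80%) were fitted higher at P7, against 55% of all genes, with a median log2 fold change of 1.23 against 0.21. For protein-coding genes with at least 100 reads the median was 0.68 for spans up to 10 kb, 0.45 from 10 to 50 kb and 0.12 above 50 kb. All 7 genes of the pyruvate dehydrogenase group and 7 of 8 genes of lower glycolysis were among the 28. The 9 members whose P7 control libraries all lay above all P1 control libraries were Slc2a4, Gpi1, Pfkl, Eno1, Pdha1, Dlat, Pdk2, Pygm and Gys1, which is 25.7% of the members against 6.89% of all genes. Gbe1 alone lay below without overlap (2.86% against 2.86%). In the Casp2-depleted libraries 17 of 35 members were fitted higher at P7, against 52.5% of all genes, with a median of -0.03 against 0.07 for all genes, and only Slc2a4 did not overlap (2.86% against 1.48%). Neither genotype had a call, and the test of the difference between them called no member.

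**Figure D2:**
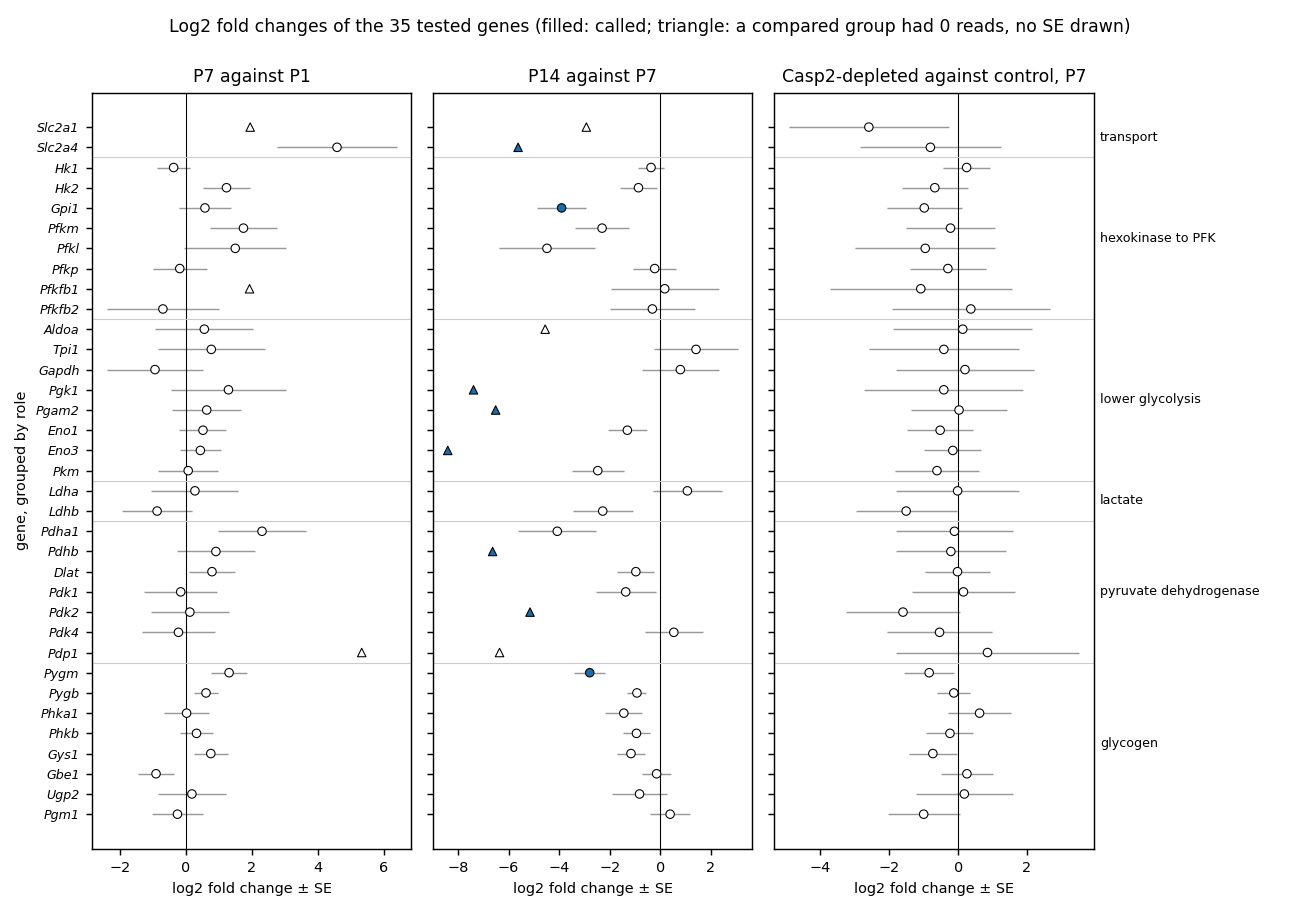
Fitted log2 fold change of the 35 members tested, for P7 against P1 and P14 against P7 over both genotypes, and for Casp2-depleted against control at P7, with bars of 1 SE. Triangles without bars mark genes with 0 reads in a compared group, and filled blue marks the genes called, which are 8 at P14 against P7 and none in the other panels.

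From P7 to P14, 8 of the 35 members fell and none rose. Over both genotypes 8 of 35 members (22.9%) were called, all lower at P14, where 8.92% of all 20368 genes were called and 8.66% were called lower. They were Eno3, Pgam2 and Pgk1 of lower glycolysis, Gpi1 (glucose-6-phosphate isomerase), Slc2a4, Pygm, and Pdhb and Pdk2, which encode a subunit of the pyruvate dehydrogenase E1 enzyme and one of the kinases that switch the complex off. Among the genes named here as muscle forms, Eno3, Pgam2 and Pygm were called, whereas Pfkm (log2 fold change -2.30 ± 1.08 (SE), adjusted p = 0.138), Gys1 (-1.16 ± 0.55, adjusted p = 0.142) and Hk2 (-0.86 ± 0.75, adjusted p = 0.494) were not in edgeR. In the controls alone 2 members were called, Eno3 and Pgam2 (5.71% against 1.88% of all genes), and in the Casp2-depleted libraries alone 3, Eno3, Pdhb and Pygm (8.57% against 2.83%). Fitted levels were lower at P14 for 29 and higher for 6 of 35 members over both genotypes (17.1% higher against 33.5% of all genes), with a median log2 fold change of -1.37 against -0.87 over all genes (-1.30 with the 3 members at 0 reads set at their bound, and with DESeq2's size factors -1.04 against -0.60). Members whose P14 libraries all lay below all P7 libraries numbered 11 in the controls (31.4% against 13.5% of all genes) and 9 in the Casp2-depleted libraries (25.7% against 10.9%). With the genotypes pooled, all P14 libraries lay below all P7 libraries of either genotype for 3 members, Eno3, Pgam2 and Gpi1 (8.57% against 3.81%).

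Eno3 had the lowest adjusted p of the members. At P7, Eno3 stood at 221, 90.6, 60.0 and 179.6 CPM in the control and 201, 77.6, 181 and 35 CPM in the Casp2-depleted libraries. At P14, Eno3 stood at 0, 0 and 5.30 CPM and 0 CPM each. Every P14 library lay below every P7 library, and 5 of the 6 had no Eno3 read. In the controls the reads went from 882 to 7, a log2 fold change of -6.24 ± 1.22 (SE; adjusted p = 1.158e-04, edgeR). In the Casp2-depleted libraries they went from 844 to 0, at least 203.6-fold lower with the floor of 3 reads over the group (adjusted p = 3.66e-08). Over both genotypes the adjusted p was 7.765e-14. Replicate 4 held all 7 reads of the P14 controls, and without it no read remained there, at least 131-fold lower with the floor of 3 reads over the group. Eno3 is a gene of 6748 bases on chromosome 11 (GRCm39, 70546593 to 70553340, plus strand).

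Pgam2 stood at 66.2, 49.6, 23.5 and 79.3 CPM in the P7 control and 79.7, 72.0, 30.9 and 39.9 CPM in the P7 Casp2-depleted libraries. In the P14 libraries it stood at 0 CPM each and 13.3, 0 and 0 CPM. All 19 reads of P14 were in a single Casp2-depleted library, and no P14 library reached a P7 library. The controls went from 338 reads to 0, at least 74.4-fold lower (adjusted p = 0.0149, edgeR), and the log2 fold change over both genotypes was -6.51 ± 1.53 (SE; adjusted p = 8.49e-04). Pgam2 (chromosome 11, 5751636 to 5753760, minus strand) lies wholly inside Dbnl on the other strand. The counting is not stated to have used strand, so reads of this gene and of Dbnl cannot be told apart with certainty.

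Pgk1, on the X chromosome, stood at 36.5, 20.1, 1.31 and 4.49 CPM in the P7 control and 22.8, 0, 0 and 23.8 CPM in the P7 Casp2-depleted libraries. It had no read in any P14 library. A level at or near 0 was thus also found in several P7 libraries. The P14 levels were at least 23.3-fold lower in the controls and at least 20-fold lower in the Casp2-depleted libraries, and the call was made over both genotypes (adjusted p = 0.0261, edgeR). Gpi1 stood at 212, 74.1, 101 and 43.4 CPM and 121, 46.7, 25.4 and 24.5 CPM at P7. At P14, Gpi1 stood at 11.3, 1.49 and 0 CPM and 7.72, 10 and 0 CPM. No P14 library reached a P7 library, with 45 reads against 1112 and a log2 fold change of -3.90 ± 0.97 (SE; adjusted p = 0.00205, edgeR).

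Pygm stood at 218, 345, 186 and 233 CPM in the P7 control and 181, 176, 174 and 16.8 CPM in the P7 Casp2-depleted libraries. At P14, Pygm stood at 101, 19.4 and 12.9 CPM and 28.8, 18.2 and 0 CPM. The control groups did not overlap, while in the Casp2-depleted groups replicate 4 of P7 lay as low as the P14 libraries. The log2 fold change was -2.79 ± 0.62 (SE) over both genotypes (adjusted p = 3.30e-04, edgeR) and -3.12 ± 0.89 in the Casp2-depleted libraries (adjusted p = 0.022), and the gene spans 6430569 to 6448538 on chromosome 19 (plus strand).

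Pdhb stood at 76.2, 59.0, 23.5 and 1.5 CPM in the P7 control and 76.0, 5.54, 39.1 and 17.5 CPM in the P7 Casp2-depleted libraries. At P14, Pdhb stood at 4.93, 0 and 0 CPM and 0 CPM each. A single P14 library had reads, above 1 P7 control library, and 1363 bases of the gene overlap Pxk on the other strand, while 1 of 9 stretches searched has a near-identical copy in another gene. In the Casp2-depleted libraries the reads went from 252 to 0, at least 60.8-fold lower (adjusted p = 0.0413, edgeR), a call lost with the replicate number as a block (adjusted p = 0.131), and over both genotypes the log2 fold change was -6.63 ± 1.70 (SE; adjusted p = 0.0029). Pdk2 stood at 92.3, 30.9, 44.4 and 42.7 CPM and 43.8, 6.33, 6.18 and 12.6 CPM at P7. At P14, Pdk2 stood at 0, 0 and 26.5 CPM and 0 CPM each. Its reads at P14 were all in control replicate 4, with a log2 fold change of -5.15 ± 1.60 (SE) over both genotypes (adjusted p = 0.0223, edgeR). Slc2a4, given above, fell by 5.62 ± 1.97 (SE) on the log2 scale, with an adjusted p of 0.0491 in edgeR. This call was lost with the replicate block (0.0875), filterByExpr (0.0514), no filter (0.0709), DESeq2's size factors in edgeR (0.0720), thinning (0.0546), no robust estimate and the percentage of reads outside genes as a term, and so was kept in 5 of 12 alternatives.

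**Figure D3:**
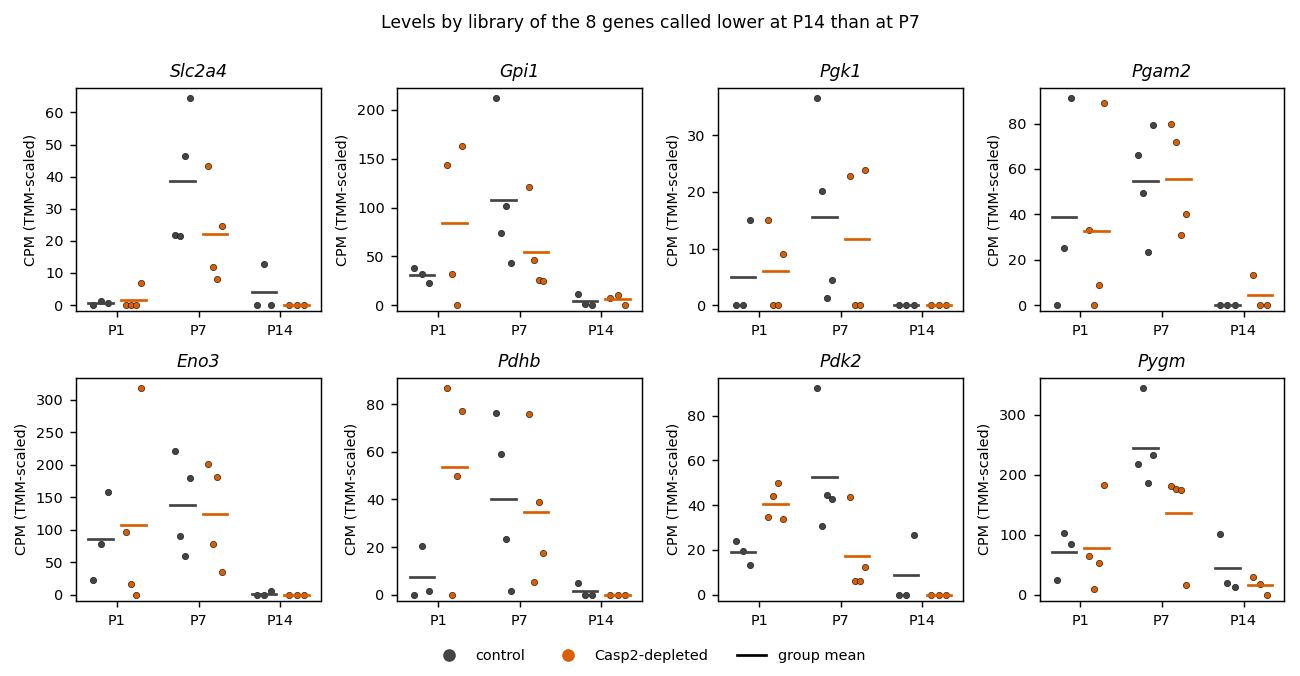
Level of the 8 genes called at P14 against P7 in each of the 21 libraries, in TMM-scaled CPM, by day and genotype, with each point 1 library and each line the group mean. P14 levels were 0 in all 6 libraries for Pgk1 and in 5 of 6 for Eno3, and the P1 libraries spread widely.

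The calls depended on single libraries. Leaving out each library in turn gave 5 to 9 called members over both genotypes, with 5 without P7 control replicate 1, P7 Casp2-depleted replicate 1, P14 Casp2-depleted replicate 3 or P14 Casp2-depleted replicate 4. In the controls the range was 1 to 6, with 6 when replicate 1 of the P14 controls was left out and 1 when replicate 2 or 4 was. In the Casp2-depleted libraries it was 1 to 4, with 1 without P1 replicate 1, P7 replicate 1, 2 or 3, P14 replicate 3 or 4, or P7 control replicate 2, and 4 without P14 replicate 2. Over both genotypes Eno3, Gpi1, Pgam2, Pdhb and Pygm were called in all 21 of these fits, Pdk2 in 16, Pgk1 in 13 and Slc2a4 in 5. Pdhb in the Casp2-depleted libraries was called in 10 of the 21 fits and in 4 of 12 other alternatives, and Pygm in 14 and 5. Pgam2 in the controls was called in 19 and 10, and was lost without P14 control replicate 2 or 4.

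Against P1, P14 had 5 of 35 members called over both genotypes (14.3%), all lower, where 4.24% of all genes were called. They were Eno3, Pgam2, Pdhb, Gpi1 and Pdk2, all of which were also called against P7; these comparisons share the P14 libraries, and P7 against P1 and P14 against P7 share the P7 libraries. At P1, Eno3 stood at 23.4, 77.9 and 158 CPM in the control and 97.3, 16.1, 0 and 318 CPM in the Casp2-depleted libraries. Pgam2 stood at 0, 25.3 and 91.1 CPM and 33.1, 0, 8.77 and 89.3 CPM. Both genes had P1 libraries with no read as well as P1 libraries with levels as high as at P7. The log2 fold changes from P1 to P14 over both genotypes were -7.97 ± 1.01 (SE) for Eno3 (adjusted p = 3.063e-12, edgeR) and -5.89 ± 1.51 for Pgam2 (adjusted p = 0.0059).

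Pdhb stood at 0, 20.4 and 1.58 CPM in the P1 control and 86.7, 0, 49.9 and 77.3 CPM in the P1 Casp2-depleted libraries. Gpi1 stood at 38.3, 32.3 and 23.0 CPM and 143, 31.5, 0 and 163 CPM. Pdk2 stood at 23.9, 19.7 and 13.5 CPM and 34.6, 44.1, 49.9 and 33.9 CPM. Pdk2 alone of these had reads in every P1 library. Their log2 fold changes to P14 were -5.73 ± 1.65 (SE) for Pdhb, -3.33 ± 0.96 for Gpi1 and -5.04 ± 1.61 for Pdk2, with edgeR's adjusted p of 0.0206, 0.0203 and 0.0450. With the replicate block the adjusted p was 0.0597 for Pdhb and 0.0659 for Pdk2. Pdk2 was called in 4 of the 21 fits without 1 library and in 6 of 12 other alternatives, and was lost also with no filter (0.0617), DESeq2's size factors in edgeR (0.0676) and thinning (0.0606). Pdhb was called in 14 and 7, Gpi1 in 15 and 8, and Pgam2 in 21 and 8; with limma-voom and TMM the adjusted p was 0.185 for Gpi1, 0.105 for Pgam2 and 0.120 for Pdhb. Eno3 was called in all of them. Pygm stood at 25.1, 103 and 84.0 CPM and 65.2, 9.79, 52.6 and 183 CPM at P1, and Pgk1 at 0, 0 and 15.1 CPM and 15.0, 0, 0 and 8.98 CPM, and neither was called between P1 and P14.

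In the controls alone only Eno3 was called against P1 (2.86% of the members against 0.319% of all genes), with 350 reads at P1 and 7 at P14 and a log2 fold change of -5.56 ± 1.20 (SE; adjusted p = 0.00302, edgeR), a call kept in 7 of 12 alternatives. In the Casp2-depleted libraries Eno3, from 855 reads to 0 and at least 187.7-fold lower (adjusted p = 1.345e-07), and Pdhb, from 402 reads to 0 and at least 88.3-fold lower (adjusted p = 0.0369, or 0.113 with the replicate block), were called (5.71% against 1.94%), Eno3 in 12 and Pdhb in 4 of 12 alternatives. Leaving out single libraries gave 2 to 7 called members over both genotypes, 2 without P1 Casp2-depleted replicate 1 or 4 or P14 Casp2-depleted replicate 4, 3 without P1 control replicate 3, P7 control replicate 1, P7 Casp2-depleted replicate 1, P14 control replicate 2 or P14 Casp2-depleted replicate 3, and 7 without P14 control replicate 1. In the controls it gave 0 without P1 control replicate 4 and 2 without P14 control replicate 1. In the Casp2-depleted libraries it gave 1 without P1 replicate 1 or 4, P7 replicate 1 or 3, P14 replicate 3 or 4, or P7 control replicate 1 or 2, and 3 without P1 replicate 2.

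The most read members of the other steps did not pass the test at P14 against P7. Hk1, the broadly expressed hexokinase, stood at 127, 117, 93.3 and 87.6 CPM in the P7 control and 196, 89.4, 67.9 and 151 CPM in the P7 Casp2-depleted libraries. At P14, Hk1 stood at 105, 50 and 87.8 CPM and 193, 104 and 0.652 CPM. The groups overlapped, and the log2 fold change over both genotypes was -0.37 ± 0.53 (SE; adjusted p = 0.748, edgeR). At P1, Hk1 stood at 88.6, 161 and 191 CPM in the control and 182, 81.1, 38.4 and 313 CPM in the Casp2-depleted libraries, around the P7 values. The antisense gene Hk1os covers 24293 bases of Hk1 and could share reads with it.

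Hk2, the insulin-responsive hexokinase of muscle, stood at 22.2, 35.8 and 81.6 CPM in the P1 control and 63.7, 32.9, 0 and 36.9 CPM in the P1 Casp2-depleted libraries. At P7, Hk2 stood at 161, 142, 67.9 and 96.5 CPM and 121, 55.4, 74.1 and 41.3 CPM. At P14, Hk2 stood at 67.7, 44.8 and 44.7 CPM and 37.9, 11.3 and 97.8 CPM. The highest values were in P7 controls, and P14 against P7 gave -0.86 ± 0.75 (SE; adjusted p = 0.494, edgeR). Dlat, the E2 subunit of the pyruvate dehydrogenase complex, stood at 0, 56.9 and 49.9 CPM and 89.2, 16.8, 29.7 and 157 CPM at P1. At P7, Dlat stood at 107, 106, 64.6 and 76.3 CPM and 159, 42.7, 42.5 and 106 CPM. At P14, Dlat stood at 7.05, 36.6 and 99.9 CPM and 25.3, 64.6 and 37.2 CPM. Unlike Pdhb, Dlat had reads in all 6 P14 libraries, with a log2 fold change of -0.97 ± 0.74 (SE; adjusted p = 0.418, edgeR).

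Pygb stood at 225, 330.0 and 350.2 CPM in the P1 control and 401, 294, 115 and 558 CPM in the P1 Casp2-depleted libraries. At P7, Pygb stood at 319.8, 1016, 347 and 361 CPM and 578, 709.8, 288 and 298 CPM. At P14, Pygb stood at 603, 184 and 242 CPM and 308, 179 and 92.6 CPM. The spread within the P7 controls came from 1 library, and P14 against P7 gave -0.92 ± 0.38 (SE; adjusted p = 0.0900, edgeR). Phkb, a regulatory subunit of phosphorylase kinase, stood at 22.2, 100.4 and 208 CPM and 212, 122, 49.9 and 149.6 CPM at P1. At P7, Phkb stood at 202, 267, 134 and 53.9 CPM and 204, 123, 93.3 and 137 CPM. At P14, Phkb stood at 48.6, 73.9 and 138 CPM and 52.6, 72.1 and 88.0 CPM. All 21 libraries had Phkb reads, and P14 against P7 gave -0.94 ± 0.53 (SE; adjusted p = 0.235, edgeR).

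Eno1, the broadly expressed enolase, stood at 41.9, 49.9 and 17.4 CPM in the P1 control and 61.7, 124, 109 and 50.4 CPM in the P1 Casp2-depleted libraries. At P7, Eno1 stood at 72.0, 129, 69.2 and 115 CPM and 68.5, 19.0, 116 and 63.8 CPM. At P14, Eno1 stood at 97.3, 63.5 and 0 CPM and 22.5, 25.1 and 11.1 CPM. Its P14 libraries reached lower values than those of P7 but overlapped them, with a log2 fold change of -1.30 ± 0.76 (SE; adjusted p = 0.256, edgeR). Near-identical copies exist in other genes for 8 of 9 stretches searched in Eno1 (3 genes), all 9 in Gapdh (88 genes) and Aldoa (1 gene), 3 in Ldhb and 1 in Pdhb (1 gene each), so the counts of these 5 genes are uncertain.

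The lactate dehydrogenase genes had fitted changes of opposite sign, neither of them called. Ldha, the muscle-type subunit, stood at 2.99, 5.62 and 20.6 CPM and 22.1, 0, 18.2 and 22.9 CPM at P1. At P7, Ldha stood at 15.1, 20.1, 24.1 and 0.748 CPM and 33.6, 8.70, 17.2 and 0 CPM. At P14, Ldha stood at 0, 3.73 and 98.4 CPM and 29.5, 0 and 58.0 CPM. Its P14 libraries lay both above and below those of P7, and P14 against P7 gave 1.07 ± 1.36 (SE; adjusted p = 0.693, edgeR). Ldhb, the heart-type subunit, stood at 109, 68.1 and 57.8 CPM and 52.6, 39.9, 13.5 and 34.9 CPM at P1. At P7, Ldhb stood at 106, 46.8, 30.0 and 9.73 CPM and 21.5, 43.5, 2.74 and 0 CPM. At P14, Ldhb stood at 0, 17.2 and 0 CPM and 1.40, 16.3 and 0 CPM. The P1 libraries all had Ldhb reads and 3 of the 6 P14 libraries had none, with a log2 fold change of -2.28 ± 1.20 (SE; adjusted p = 0.193, edgeR) for P14 against P7.

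The share of one isozyme within the reads of its set does not depend on the scaling of a library. Genes of a set can differ in span, and Hk2 (51.73 kb), Eno3 (6.748 kb), Pygm (17.97 kb) and Pdk4 (13.24 kb) are each the shortest of theirs. The part of gene span in the shares was not tested. The share was computed for 8 sets in libraries with at least 10 reads on the set, and compared between days by an exact permutation test, 2-sided, with days permuted within each genotype and p adjusted over 19 tests. Hk2 held 19.53% of the Hk1 and Hk2 reads at P1 and 44.44% at P7, as the mean of the genotypes, a rise of 24.91 points (exact p = 0.002041, adjusted 0.0129). The P1 libraries ranged from 0 to 29.9% and the P7 libraries from 21.5 to 55.9%. At P14 the share was 39.2, 47.2 and 33.7% in the controls but 16.4, 9.78 and 99.3% in the Casp2-depleted libraries, and the mean of 40.95% was 3.49 points below P7 (exact permutation p = 0.849).

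Eno3 held 59.46% of the enolase reads at P7 and 0% at P14 (exact permutation p = 0.001905, adjusted 0.0129). All 5 P14 libraries with at least 10 enolase reads had none on Eno3, while P7 libraries ranged from 35.5 to 80.3%. The sixth P14 library, control replicate 4, had 7 enolase reads, all on Eno3; with a minimum of 5 reads it entered, and the difference was -42.8 points with an adjusted p of 0.0709. Pygm held 28.34% of the glycogen phosphorylase reads at P7 and 7.777% at P14, a difference of -20.57 points (exact permutation p = 0.003265, adjusted 0.0155). P7 libraries ranged from 5.35 to 40.5% and P14 libraries from 0 to 14.3%, so the shares overlapped through a single P7 library.

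Pdk4, the kinase induced by fasting and fatty acids, went the other way. It held 28.17% of the reads of Pdk1, Pdk2 and Pdk4 at P7 and 68.17% at P14, a rise of 40 points (exact permutation p = 0.001905, adjusted 0.0129). The P14 controls held 38.6, 41.9 and 39.5% and the P14 Casp2-depleted libraries 100 and 92.7%, the third having no read on the set, while the P7 libraries ranged from 22.1 to 41.1%. The level of Pdk4 itself was not called between P7 and P14 (0.54 ± 1.15 on the log2 scale, adjusted p = 0.867, edgeR), and with all 24 libraries the rise in share was 23.9 points and did not pass (adjusted p = 0.247). With replicates as blocks all 4 of these shares had an adjusted p of 0.198 in the exact permutation test. That test swaps days only within pairs of same-numbered libraries. Eno3 and Pdk4 had too few such pairs to go below 0.05 even before adjustment. Hk2 and Pygm had too few to go below 0.05 after adjustment, so the block could not decide on any of the 4.

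Pfkm, the muscle phosphofructokinase, held 20.54% of its set at P1, 46.78% at P7 and 24.57% at P14, and the rise of 26.24 points from P1 to P7 had an exact permutation p of 0.0196 and an adjusted p of 0.0698. Ldhb held 78.08, 60.9 and 37.96% of the lactate dehydrogenase reads at P1, P7 and P14, with adjusted exact permutation p of 0.153 or more. Neither passed. The share of Pgam2 was 100% wherever it could be computed, because Pgam1 had no reads, and the share of Slc2a4 could not be tested because too few P1 and P14 libraries had 10 reads.

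**Figure D4:**
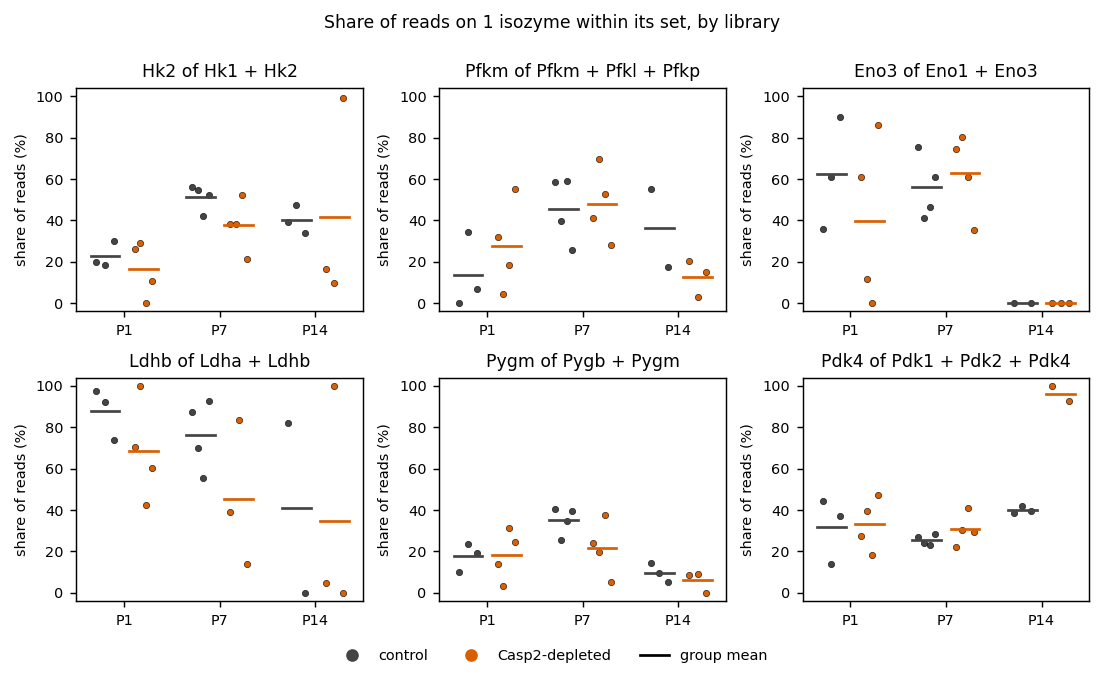
Share of Hk2, Pfkm, Eno3, Ldhb, Pygm and Pdk4 in the reads of their isozyme set in each library with at least 10 reads on the set, in percent, by day and genotype, with each point 1 library and each line the group mean. The Eno3 share was 0% in all 5 P14 libraries plotted, and the P14 Casp2-depleted points lie at both ends of the Hk2 axis and at the top of the Pdk4 axis.

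Promoter sequence is shown for 4 genes whose level or share changed between days, to let the stretch before the start be read beside those values, and the 4 were chosen after their values were seen. The RefSeq promoter table (GRCm38.p6) held 34 of the 36 genes. The letters ACGTG, the core of the element bound by hypoxia-inducible factors, occurred on either strand within 250 bases before a listed start of 15 of the 34 genes (44.1%), and of 18.5% of all 27025 genes in the table. CACGTG, the E-box, which contains ACGTG, occurred in 4 (11.8% against 6.86%), AAGGTCA, a site of estrogen-related receptors, in 2 (5.88% against 4.7%), and the 10-base MEF2 consensus in none (0% against 0.167%). A gene counted when any of its listed starts had a match, so genes with more starts had more chances to count. Numbers of starts were not evened out between the members and all genes. A match is a description of letters and not evidence of binding. The Eno3 (chr11:70656926-70657175, plus strand) and Pgam2 (chr11:5803797-5804046, minus strand) windows held none of the 4 exact strings. The Pygm window (chr19:6384158-6384407, plus strand) held 1 ACGTG on the reverse strand, and the Hk2 window (chr6:82774455-82774704, minus strand) held 2 on the reverse strand, where they read CACGT as printed. Capitals mark these letters, and each line runs 5′ to 3′ and ends at the base before the start.
Eno3: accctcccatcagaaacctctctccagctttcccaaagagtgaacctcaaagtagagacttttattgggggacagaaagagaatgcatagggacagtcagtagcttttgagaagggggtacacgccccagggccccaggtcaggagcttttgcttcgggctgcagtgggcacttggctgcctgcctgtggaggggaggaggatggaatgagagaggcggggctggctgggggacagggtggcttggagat
Pgam2: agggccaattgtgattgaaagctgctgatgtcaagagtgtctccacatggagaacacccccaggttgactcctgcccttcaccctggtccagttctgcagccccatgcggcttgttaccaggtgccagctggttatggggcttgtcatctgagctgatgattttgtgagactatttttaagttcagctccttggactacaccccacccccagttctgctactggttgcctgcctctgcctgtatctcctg
Pygm: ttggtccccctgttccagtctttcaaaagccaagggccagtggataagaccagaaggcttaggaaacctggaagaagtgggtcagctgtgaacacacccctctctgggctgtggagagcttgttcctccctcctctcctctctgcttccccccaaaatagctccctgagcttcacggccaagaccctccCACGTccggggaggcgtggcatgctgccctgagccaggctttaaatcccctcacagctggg
Hk2: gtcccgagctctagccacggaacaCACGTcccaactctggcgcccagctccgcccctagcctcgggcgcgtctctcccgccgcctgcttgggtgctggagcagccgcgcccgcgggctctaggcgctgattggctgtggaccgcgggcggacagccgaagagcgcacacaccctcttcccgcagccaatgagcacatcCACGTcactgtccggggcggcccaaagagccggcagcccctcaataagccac

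The fall from P7 to P14 moved with gene span and with properties of the libraries. Over both genotypes all genes had a median log2 fold change of -1.84 for spans up to 10 kb, -1.29 from 10 to 50 kb and -0.28 above 50 kb. For protein-coding genes with at least 100 reads these medians were -2.59, -1.31 and -0.41. Members followed the same order, with fitted medians of -5.99 over 8 short genes, -2.29 over 18 and -0.37 over 9 long genes (-5.09, -1.82 and -0.37 with genes at 0 reads set at their bound). Tpi1 and Gapdh, both short, had log2 fold changes of 1.41 and 0.795 that did not pass (adjusted p = 0.658 and 0.836, edgeR), and of the called genes Eno3, Pgam2, Pdhb and Slc2a4 span under 10 kb. The median of all 12 CM markers' summed level went from 69172 to 24935 CPM, and the median percentage of reads outside genes from 50.7 to 73.9%, between the same days. Median summed levels of other cell types' markers went from 261 to 599 CPM for 8 endothelial, 131 to 298.6 CPM for 8 fibroblast, 53.8 to 163 CPM for 8 macrophage and 12.2 to 35.6 CPM for 6 adipocyte genes, and from 353 to 254 CPM for 7 mural and 27.1 to 7.46 CPM for 7 erythroid genes. At P14 a library had no read on 1 to 5 of the endothelial, 0 to 4 of the fibroblast, 4 to 7 of the macrophage and 4 to 6 of the adipocyte genes. The part of gene span and of these marker levels in the calls was not tested. With the percentage of reads outside genes added to the edgeR fit, an alternative chosen after the data were seen, 225 genes were called over both genotypes in place of 1817, and Eno3 was the only member among them (-5.88 on the log2 scale, adjusted p = 3.854e-05). In the controls alone no member was called with this term, and Eno3 had a log2 fold change of -3.68 (adjusted p = 0.273). The percentage ran from 34.3 to 64.3% in the P7 and from 63.7 to 76.1% in the P14 libraries. It thus went largely with day, and this fit cannot tell the 2 apart.

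**Figure D5:**
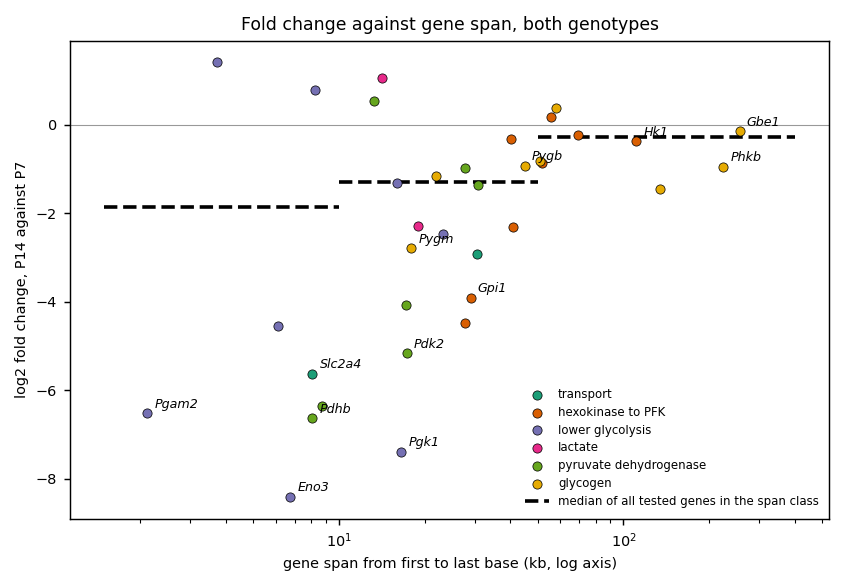
Log2 fold change of P14 against P7 over both genotypes for the 35 members against gene span in kb on a log axis, with points coloured by role. Dashed lines are the medians of all tested genes in 3 span classes, from -1.84 for spans up to 10 kb to -0.28 above 50 kb, and 6 of the 8 members up to 10 kb lie below 0, with Tpi1 (1.41) and Gapdh (0.795) above.

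Genes of fatty acid oxidation and some other genes of glucose metabolism were called lower at P14 than at P7. Of 57 other genes of the pathway that were tested, 7 were called over both genotypes, all lower, and 45 had a lower fitted level, with a median of -1.22, while the median summed level of the whole list was 2500.4 CPM at P7 and 3046 CPM at P14. They were Phkg2, a catalytic subunit of phosphorylase kinase (-6.17), Txnip, an inhibitor of glucose uptake (-6.89), Epm2a, the glycogen phosphatase laforin (-5.20), Gpd1, a glycerol 3-phosphate dehydrogenase (134 reads at P7 and 0 at P14), Prkaa2 and Prkag2, subunits of the AMP-activated kinase (-2.40 and -1.46), and Gsk3b, a kinase of glycogen synthase (-1.50). Of 26 genes of fatty acid oxidation tested, 12 were called, all lower, with a median of -1.79 and a median summed level of 3307 CPM at P7 and 2763 CPM at P14; among them were Acsl1, Cd36 and Fabp3, which activate, take up and bind fatty acids. No gene of either list was called higher. These counts stand beside 8 of 35 members and 8.92% of all genes, 8.66% lower.

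No member passed the test between Casp2-depleted and control CMs at any day in edgeR's quasi-likelihood test. The counts were 0 of 35 at P1, P7, P14 and over all days, where 0%, 0%, 0.167% and 0.0147% of all genes were called. At an unadjusted p below 0.05 they were 0, 0, 6 and 3 members, beside 7.34%, 4.22%, 12.8% and 8.4% of all genes. DESeq2 called Pdk1 and Pdk2 at P14 and limma-voom called Pdk1 with either normalization; neither tool called a member at P1 or P7 or over all days. A missed threshold does not show that levels were equal, since the replicate spread was wide (common biological coefficient of variation 1.5).

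Pdk1, a pyruvate dehydrogenase kinase known as a target of hypoxia-inducible factor, stood at 43.7, 59.0 and 60.6 CPM in the P14 control and 0, 5.64 and 0 CPM in the P14 Casp2-depleted libraries. These groups did not overlap, and Pdk1 was the only member of which this was true at P14 (2.86% against 2.14% of all genes lower without overlap). The separation rests on the libraries kept, since the P14 Casp2-depleted replicate 1 that was left out had 201 Pdk1 reads (139 CPM of reads on genes), above every control, and the control replicate 3 that was left out had 0. The log2 fold change was -4.78 ± 2.04 (SE; adjusted p = 0.379, edgeR), with 9 reads against 221. At P7 the groups overlapped, at 21.4, 10.1, 12.4 and 57.6 CPM and 35, 6.33, 32.3 and 39.2 CPM, and at P1 they stood at 2.99, 19.7 and 40.4 CPM and 20.6, 8.39, 113 and 28.9 CPM. Pdk2 had 35 reads in the P14 controls, all in replicate 4, and 0 in the Casp2-depleted libraries, at least 13-fold lower (adjusted p = 0.362, edgeR). Pdk1 was singled out after its values were seen.

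At P1, 29 of 35 members (82.9%) were fitted higher in the Casp2-depleted libraries, against 52.4% of all genes, with a median log2 fold change of 0.70 against 0.08. None passed, and only Eno1 and Pdk2 lay higher (5.71% against 1.13%) and Ldhb lower (2.86% against 2.27%) without overlap. At P7 10 of 35 (28.6%) were fitted higher, against 48.1% of all genes, with a median of -0.24 against -0.03, and Pygm and Gys1 lay lower without overlap (5.71% against 0.943%). Pygm differed there by -0.84 ± 0.73 (SE) and Gys1 by -0.73 ± 0.70 on the log2 scale, each with an adjusted p of 1.0 in edgeR. At P14 the median was -0.17 against 0.00.

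No member was called for a change between days that differed by genotype. For the difference of the Casp2 effect at P7 against P1, P14 against P7 and P14 against P1, edgeR called 0 of 35 members (0%, 0.0245% and 0.0638% of all genes), with 0, 3 and 6 at an unadjusted p below 0.05 (6.83%, 9.76% and 11.7% of all genes). DESeq2 called Pdk1 and Pdk2 for P14 against P1, and limma-voom called none.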

How the data were processed

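The authors sequenced sorted nuclei with the QuantSeq 3′ FWD kit (single-end), and per the labels and the submitters' processing notes used FastQC 0.11.8, cutadapt 4.0, STAR 2.6.1e and HTSeq 2.0.3 on GRCm39. The deposited values are whole-number counts of reads per gene over exons and introns, not normalized. Strand setting and molecular identifiers are not given in the sources used here. Of 56923 identifiers, 56236 matched a symbol (99.5% of reads). Reads on no gene were left out of library sizes and tests (34.3 to 76.1% of a library).

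The 21 libraries kept by the study were fitted in edgeR 4.0.16 (R 4.3.3) with TMM scaling, 6 group means and a robust quasi-likelihood test, for genes with at least 10 reads in all and a read in at least 3 libraries. The comparisons were between days within and over genotypes, between genotypes at each day, and of their difference. Benjamini-Hochberg adjustment ran over all 20368 genes. Levels are TMM-scaled CPM, and summed levels are CPM of the reads on genes, without TMM. SE is the size of the log2 fold change divided by the square root of F. A fold against a group at 0 is given as a bound with 3 reads over the group. The log2 levels used to correlate libraries, but not the fitted fold changes, carry a prior count of 2. On simulated counts for P14 against P7 controls over 20368 genes, the fit recovered 54 of 200 genes changed 16-fold and 0 of 200 changed 4-fold. Isozyme shares and motifs used Python 3.11.15 with scipy 1.17.1.

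Per the labels' file names, libraries with one replicate number shared a batch, which pairs them. Same-numbered libraries correlated between -0.0590 and 0.185 in their deviations from the group mean. Alternatives were DESeq2 1.42.0, limma-voom (limma 3.58.1), other scaling and filters, all 24 libraries, thinning to 891817 reads, a replicate block and leaving out each library. The 36 members, the gene lists and the tests were chosen with earlier results of these data known. Values in every library are given for members called in any comparison and for the 2 most read members of each role.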

Additional observations from a re-analysis of the deposited data

Results flagged for a closer look

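In 6 of 50 gene-by-group sets of 4 libraries 1 library lay far from the other 3 by Dixon's criterion, which chance does in about 1 in 20 sets. In 3 of the 6, the 2 sets of Slc2a1 and that of Slc2a4, the other 3 libraries had no read, so any read meets the criterion and that rate does not apply; this leaves 3 of 47 sets. At P7, these were Pdk2 at 43.8 CPM in Casp2-depleted replicate 1, Pygb at 1016 CPM in control replicate 2, Pygm at 16.8 CPM in Casp2-depleted replicate 4, and Slc2a1 at 5.75 CPM in control replicate 2 and at 0.686 CPM in Casp2-depleted replicate 3. At P1 it was Slc2a4 at 6.98 CPM in Casp2-depleted replicate 4. The Slc2a1 value of 0.686 CPM lies under the floor of 3 reads.

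Among the 3 libraries left out by the study, P1 control replicate 1 had a summed level of the 36 genes of 3824 CPM, above the highest kept library with 2480 CPM.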

How the results depend on the processing

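All 693 fold changes of the 21 gene and comparison pairs called stayed below 0 in every alternative, and 233 of 283 counts and shares kept their side. Numbers of called members differed as follows from 2 (controls, P14 against P7), 1 (controls, P14 against P1), 3 (Casp2-depleted, P14 against P7), 2 (Casp2-depleted, P14 against P1) and 5 (both, P14 against P1). In that order, DESeq2 gave 5, 2, 5 and 5, and 2 at P14 between genotypes and 2 for their difference at P14 against P1. limma-voom gave 6, 1 (Ldhb in place of Eno3), 6, 4 and 3 with TMM and 6, 0, 5, 4 and 3 with quantile normalization, plus 1 at P7 against P1 over both genotypes and 1 at P14 between genotypes with each, and 1 at P7 against P1 in the controls with quantile normalization. All 24 libraries gave 1, 0, 1 and 1. For the last 3 comparisons within a genotype, the filterByExpr filter gave 0, 1 and 1, and fitting only the groups compared gave 0, 1 and 1, with 1 for both genotypes. DESeq2's size factors in edgeR gave 1 and 1 in the Casp2-depleted comparisons, no filter or thinning 1 for P14 against P1, and no robust estimate 2 in the controls for P14 against P1. The replicate block gave 1 for Casp2-depleted P14 against P1 and 3 over both; it lost the calls named in the report and added Gpi1 in the controls at P14 against P7. The percentage of reads outside genes in the fit gave 0, 1 and 1 at P14 against P7 in controls, in Casp2-depleted libraries and over both, and 1 and 1 at P14 against P1. The cause was not tested.

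Over all genes, P14 against P7 in the controls had 382 calls, 1150 and 702 with limma-voom, 1031 with DESeq2, 231 with filterByExpr and 35 with all 24 libraries, and over both genotypes 1817, 3242 with limma-voom and TMM, and 225 with the percentage of reads outside genes. Leaving out single libraries gave 1 to 6, 0 to 2, 1 to 4 and 1 to 3 members in the first 4 comparisons, 5 to 9 over both at P14 against P7 and 2 to 7 at P14 against P1.

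With the replicate block the 4 shares that passed became 24.1 (Hk2), -58.6 (Eno3), -20.2 (Pygm) and 37.1 points (Pdk4), none passing. All 4 had too few pairs to pass under the block after adjustment. Pdk4 was 23.9 points with all 24 libraries. With a minimum of 5 reads Eno3 was -42.8 points and Pfkm, P14 against P1, turned from 4.03 to -2.03 points. Leaving out libraries moved Hk2, P14 against P7, between -17.9 and 4.53 points, above 0 without P14 Casp2-depleted replicate 2 (2.87) or 3, and Pfkm, P14 against P1, between -5.37 and 13.4 points. Shares that had not passed did so without P1 Casp2-depleted replicate 4 or P7 Casp2-depleted replicate 4 (Pfkm, P7 against P1, range 22.4 to 31.4), without P14 control replicate 1 (Pfkm, P14 against P7, -31.6 to -12.8) and, at P14 against P1, without P1 Casp2-depleted replicate 3 (Eno3, -57.6 to -43.3) or 2 (Pygm, -12.7 to -8.06) or P1 control replicate 2 (Pdk4, 31.2 to 38.9 points). With 3 reads worth 1.03 to 3.36 CPM, levels near 0 at P14 were limited by depth.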
